A study of Neurospora crassa with 84 samples.

Results

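Gene expression in the ∆ve-1 mutant of Neurospora crassa was compared between day 6 and day 1 after fertilization in light. The comparison took the libraries whose labels give the ve-1 mutant, light, and 6 days or 1 day after fertilization, with 3 libraries on each day, so that 6 of the 84 libraries of the series entered it. The series followed wild-type and ∆ve-1 cultures kept in the dark or in light over 7 sampling days, in order to learn what VE-1 does for gene expression before and after a cross. Both groups of 3 libraries came from a deletion strain of mating type mat A in the OR74A background, which was the female parent, and the male parent on both days was a wild-type strain of mating type mat a, added as conidia. The plates held nitrogen-poor synthetic crossing medium (SCM) and stood at 22 °C in light throughout. Tissue was scraped from the plate surface, so that a library mixed mycelium, aerial conidia, female organs and the cells of the male parent. The wild-type light and ∆ve-1 dark cultures set beside these groups were treated alike, apart from the ve-1 allele or the light. Tissue of biological replicates was pooled for RNA according to the study's methods, so p-values measure the spread between these libraries. Day 6 cultures were also older than day 1 cultures, and the age of the culture and the time since fertilization cannot be told apart. A change in RNA per cell cannot be told apart from a change in how many cells of a type were scraped up.

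VE-1 is a protein of the velvet family, fungal regulators that work with one another and with the LAE-1 protein to couple light to reproduction. N. crassa makes conidia, its asexual spores, in the air and protoperithecia, its immature female organs, on nitrogen-poor medium. A protoperithecium that has fused with a male cell matures into a perithecium, in which meiosis and ascospore formation take place. Light is sensed by the white collar complex of WC-1 and WC-2. Sulfur is taken up as sulfate, methionine or organic sulfur compounds, and the genes for this are switched on by the CYS3 activator when sulfur is short and kept off by the SCON proteins when it is plentiful.

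The deleted gene was examined first, since it checks the labels. ve-1 (NCU01731), on chromosome II from 2607929 to 2611456 in assembly NC12, had 14.7, 17.5 and 13.6 CPM (counts scaled to library size after TMM normalization) on day 6, against 10.3, 13.8 and 9.42 CPM on day 1. Wild-type light cultures had means of 156 CPM on day 6 and 380 CPM on day 1, so all 6 mutant libraries were far below the wild type. The low remaining level did not differ between the days beyond the replicates (edgeR's quasi-likelihood test, adjusted p = 0.148).

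Libraries held 15106165 to 15377290 counts on day 6 and 16062614 to 16676427 counts on day 1, within the 14526546 to 18376011 counts of the whole series. Libraries of the same day lay closer to one another than to those of the other day, with a root mean square log2 distance of 0.313 to 0.355 within day 6 and 0.237 to 0.309 within day 1, against 0.514 to 0.636 between the days. The pheromone gene ccg-4 took 9.44% to 15.96% of the counts on day 6 and 7.23% to 7.45% on day 1, and the ribosomal RNA genes took 0.527% to 0.648% and 0.472% to 0.508%. Conidial markers as a set were abundant on both days. The 6 of them summed to 65940 to 91790 CPM on day 6 and 71760 to 92730 CPM on day 1, and the sums overlapped. Single genes of this set went both ways, and none was called. con-6, eas and con-13 had log2 fold changes of -0.5, -1.04 and -1.35, while con-8, fl and con-10 had 0.68, 0.52 and 0.22. The values of the days overlapped only for con-10. con-13 was low on both days, at 48.38 CPM in its highest library. The 6 perithecial markers summed to 633 to 803 CPM on day 6, all below the 906 to 961 CPM of day 1. Single perithecial markers also went both ways. The log2 fold changes were -1.72, -0.82 and -1.16 for the melanin genes per-1, tnr-1 and scy-1. They were 0.38, 0.34 and 0.34 for fsd-1, asd-1 and app, and only scy-1 was called. The 6 markers were not at 0 on either day, but the same genes summed to 13070 to 14250 CPM in wild-type light cultures on day 6. The 4 meiotic markers summed to 45.3 to 60.1 CPM on day 6, above the 24.8 to 29.2 CPM of day 1, while the wild type in light reached 302 to 348 CPM on day 6. Of the 4, msh4 and sad-1 were called higher (1.80 and 1.34), while msh5 and spo11 were at 0.48 and 0.21 and were not called. The libraries were thus rich in conidial transcripts, and the part of these cell types in the changes below was not tested.

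Between day 1 and day 6, genes for sulfur acquisition and for DNA replication fell in the mutant in light. The pheromone gene mfa-1, the photoreceptor gene wc-1 and a set of mostly unnamed genes rose. Of 9701 genes tested, 620 (6.39%) were called by edgeR, which required an adjusted p below 0.05 and a log2 fold change beyond 1 in either direction. The 294 genes called higher made up 3.03% and the 326 called lower 3.36% of the genes tested. Counts of called genes in each gene list below are to be read beside these shares. Without the fold criterion the count was 2296 genes (23.7%). The median log2 fold change was 1.41 among the genes called higher and -1.36 among those called lower, and 0.00 over all genes. The 3 values of day 6 and the 3 of day 1 did not overlap for 285 of the genes called higher and 321 of those called lower, a separation that 49.1% of all tested genes also had. Many genes named below were chosen partly for such a separation, so for them it adds no support. Of the 294 genes called higher, 14 had a symbol in the RefSeq annotation and 20 were non-coding RNAs (6.80%). Of the 326 called lower, 39 had a symbol and 2 were non-coding RNAs (0.613%), and of all 9701 tested genes, 1116 had a symbol and 173 were non-coding RNAs (1.78%). The higher group mean reached 10 CPM for 270 of the genes called lower and 159 of those called higher. Counts of calls depended on the libraries. Without replicate 2 of day 6 there were 440 calls, with 214 lower, and without replicate 3 of day 1 the genes called higher numbered 187.

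**Figure D1:**
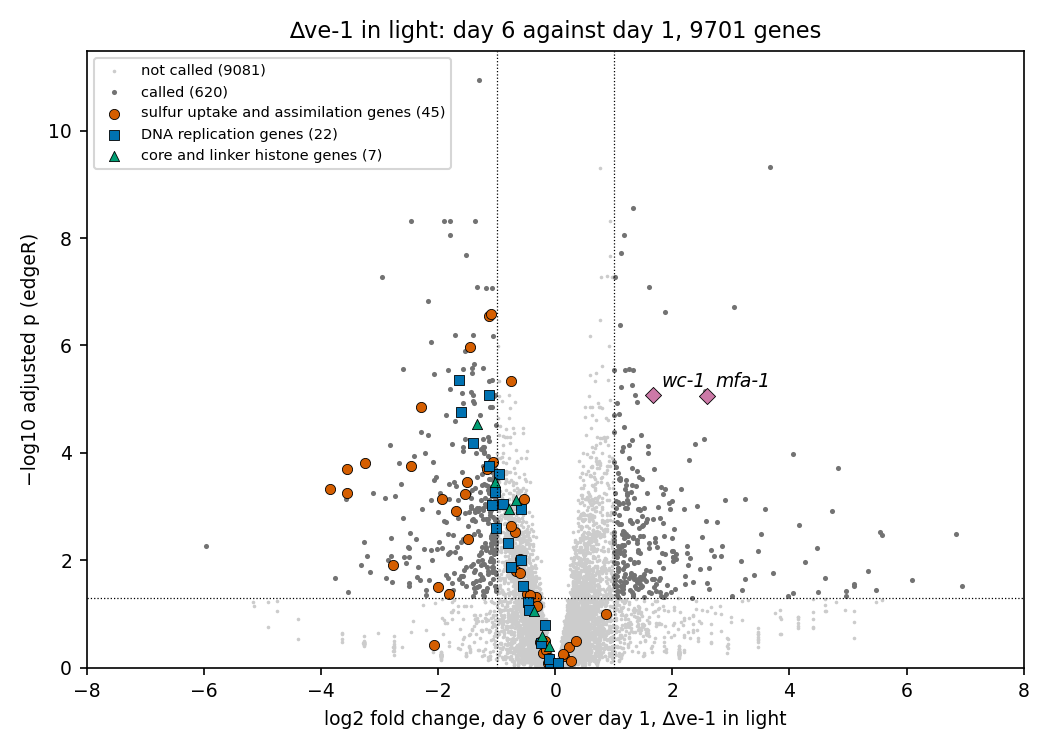
Log2 fold change of day 6 over day 1 in ∆ve-1 in light (x axis) against -log10 of the edgeR adjusted p (y axis), with 1 point a gene, dotted lines at the thresholds, and the sulfur, DNA replication and histone lists marked. The sulfur and replication genes past the lines lie on the left side, with aap-23 at -3.85 and un-24 at -1.61, while mfa-1 at 2.59 and wc-1 at 1.68 lie on the right.

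Many of the largest falls of single genes were at sulfur genes. A list of 45 genes for the uptake, release and assimilation of sulfur was put together after the values had been seen, so its counts describe it and test nothing. Of these, 19 were called lower and 0 higher, beside 3.36% lower and 3.03% higher of all tested genes. At an adjusted p alone 29 were lower and 0 higher. The list had a median log2 fold change of -0.69 beside 0.00 for all genes. The values of the 3 day 6 and 3 day 1 libraries did not overlap for any of the 19. That also held for 321 of the 326 genes called lower and for 49.1% of all tested genes. Replicate 3 of day 1 was the highest library for 15 of the 19 and replicate 3 of day 6 the lowest for 16. Leaving out 1 library or changing the processing left 14 to 19 calls, with 14 when replicate 3 of day 1 was left out.

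Among the transporters, aap-23 (NCU02195, chromosome VII, 3378252 to 3380532), annotated as a high-affinity methionine permease, had 45.3, 19.5 and 22.6 CPM on day 6, against 189, 237 and 832 CPM on day 1. All day 6 libraries were below all day 1 libraries, although replicate 3 of day 1 stood well above the rest. The log2 fold change was -3.85 ± 0.82 (SE; adjusted p = 0.000472), and -2.87 (adjusted p = 0.0114) without that library. The sulfate permease gene cys-14 (NCU04433) had 309, 205 and 124 CPM on day 6, against 547, 746 and 1149 CPM on day 1, a log2 fold change of -1.94 ± 0.43 (adjusted p = 0.000729). The other sulfate permease gene, cys-13 (NCU03235), was lower in level and fell by 1.70 on the log2 scale, with 16.8, 16.6 and 7.64 CPM on day 6 and 34.0, 50.8 and 48.8 CPM on day 1. Both permease genes were thus below the day 1 range in every day 6 library. The methionine permease genes aap-7 (NCU04942) and aap-1 (NCU07754) changed by -1.49 and -1.13.

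Genes for the release of sulfur from organic compounds fell as far. tdo-3 (NCU02196), for a taurine dioxygenase, which frees sulfite from taurine, had 42.6, 33.8 and 23.5 CPM on day 6, against 259, 314 and 596 CPM on day 1 (log2 fold change -3.55 ± 0.71, adjusted p = 0.000199). Its relative tdo-2 (NCU01057) had 224, 144 and 72.8 CPM on day 6, against 736, 740 and 962 CPM on day 1, with a log2 fold change of -2.47 ± 0.49. The most abundant member, tdo-4 (NCU07610), had 682, 298 and 225 CPM on day 6 and 1923, 2132 and 4126 CPM on day 1. Its log2 fold change of -2.76 passed the threshold with all libraries (adjusted p = 0.012) but not without replicate 2 or replicate 3 of day 6, or replicate 3 of day 1 (adjusted p = 0.0659, 0.0651 and 0.0591), and it was -3.38 without replicate 1 of day 6. The arylsulfatase gene ars-1 (NCU06041), whose enzyme cuts sulfate from aromatic sulfate esters, had 10.4, 6.69 and 4.72 CPM on day 6, against 41.3, 63.5 and 102 CPM on day 1 (-3.24 ± 0.63, adjusted p = 0.000151). No day 6 library of these 4 genes reached the day 1 range. The genes NCU10016 and NCU05888, both annotated for desulfurization, changed by -3.55 and -2.01.

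In the pathway that reduces sulfate and makes cysteine and methionine, called genes had log2 fold changes of -1.06 to -2.29. The ATP sulfurylase gene cys-11 (NCU01985), for the first step of sulfate assimilation, had 245, 159 and 137 CPM on day 6, against 328, 377 and 420 CPM on day 1 (-1.06 ± 0.21, adjusted p = 0.000147). cys-5 (NCU02005), for the reductase of activated sulfate, had 175, 148 and 81.0 CPM on day 6 and 337, 362 and 481 CPM on day 1 (-1.55). cys-16 (NCU09230), for a cystathionine gamma-lyase, had 153, 111 and 73.9 CPM on day 6 and 481, 496 and 671 CPM on day 1 (-2.29 ± 0.38, adjusted p = 1.39e-05). All 3 genes were lower in every day 6 library. cys-2 changed by -1.5, met-21 by -1.45, met-19 by -1.82 and eth-1, the S-adenosylmethionine synthetase gene, by -1.10. The genes cys-4 and met-5 each had a log2 fold change of -0.75, which passed the adjusted p (0.00231 and 4.53e-06) but not the fold criterion. Of the regulators, the repressor gene scon-2 (NCU08563) had 185, 194 and 173 CPM on day 6, against 314, 428 and 495 CPM on day 1 (-1.17 ± 0.23, adjusted p = 0.000197). The activator gene cys-3 (NCU03536) had a log2 fold change of only -0.54, with 465, 427 and 379 CPM on day 6 and 563, 634 and 648 CPM on day 1, an interval between the groups that was small but without overlap (adjusted p = 0.000708). The other repressor gene, scon-3, was at -0.01.

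Levels from day 0 on are given for all 45 genes of the list, since the 19 called lower were chosen for a high day 1 and a low day 6 in these libraries. The 45 genes summed to 10280 CPM on day 0, 12370 CPM on day 1 and 4853 CPM on day 6 in ∆ve-1 in light. The sums on the same days were 9423, 3758 and 3370 CPM in wild-type light cultures and 5984, 3590 and 3624 CPM in mutant dark cultures. The day 1 mean was above the day 0 mean for 26 of the 45 in the mutant in light (median log2 ratio 0.05), for 8 in wild-type light cultures (-0.93) and for 9 in mutant dark cultures (-0.41). On day 6, 36 of the 45 had a lower mean in wild-type light cultures, and 34 in mutant dark cultures, than in the mutant in light. These ratios were not tested. cys-14 stood at means of 814, 574, 271 and 212 CPM on days 1, 2, 4 and 6 in the mutant in light, and at 84.6, 70.3, 46.9 and 41.9 CPM in wild-type light cultures. The difference between strains in the change of the 45 genes from day 1 to day 6 was called in 15, of which 14 were lower in the mutant, beside 13.6% of all tested genes called lower for that difference and 7.54% called higher. Between light and dark in the mutant it was called in 16, all of them lower in light, beside 5.57% of all genes lower and 2.06% higher. The list of 45 was itself formed after the day 6 and day 1 values were seen, and those values enter both differences. These counts and shares thus describe the list and do not test it. tdo-2 differed in both tests, by -2.04 from the wild type (adjusted p = 0.0113) and by -2.50 from the dark (adjusted p = 0.0069), and so did ars-1, by -4.50 (adjusted p = 3.1e-05) and -4.07 (adjusted p = 0.0011). cys-14 differed from the dark (-1.96, adjusted p = 0.021, up to 0.0940 with 1 library left out) but the difference from the wild type was not called (-0.92, adjusted p = 0.23).

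**Figure D2:**
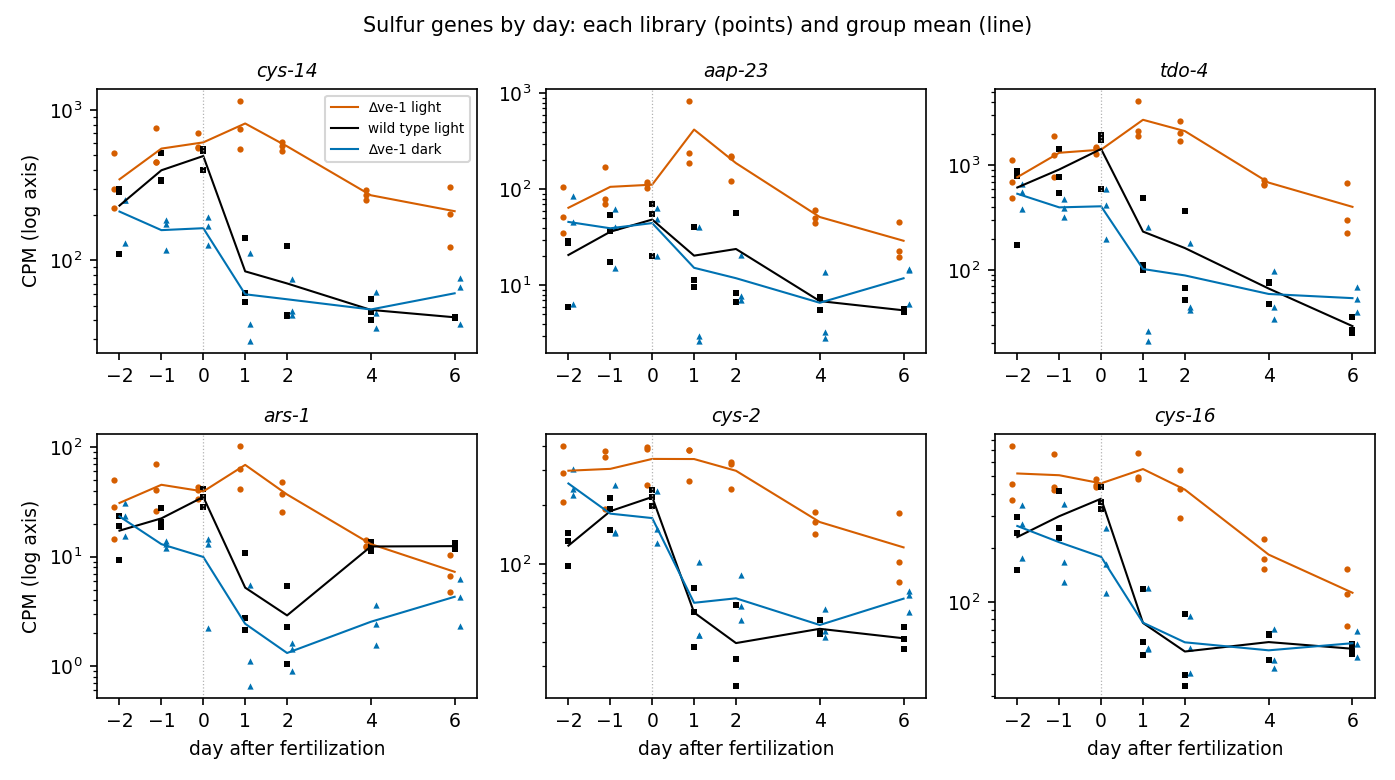
CPM (log axis) of 6 sulfur genes on the 7 sampling days (x axis, day after fertilization), with points for libraries and lines for group means in ∆ve-1 light, wild-type light and ∆ve-1 dark. In ∆ve-1 light the levels were still high on day 1 (cys-14, 814 CPM) and low on day 6 (212 CPM), while the wild type in light was low by day 1 (84.6 CPM).

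Genes outside the list fell by like amounts. chol-16 (NCU08364) had 319, 212 and 121 CPM on day 6, against 1147, 1358 and 2074 CPM on day 1 (-2.81 ± 0.52, adjusted p = 7.21e-05). NCU06040, which lies next to ars-1, had 5.27, 4.20 and 2.7 CPM on day 6 and 28.5, 40.0 and 75.7 CPM on day 1 (-3.56 ± 0.79). suc-2 (NCU07819) had 302, 120 and 104 CPM on day 6, against 1254, 1439 and 2554 CPM on day 1. Its log2 fold change was -3.32 (-3.97 without replicate 1 of day 6), and the call was lost without replicate 2 or 3 of day 6 (adjusted p = 0.0681 and 0.0614). Its neighbour mfs-29, annotated as a pantothenate transporter, changed by -3.26 (-3.90 without replicate 1 of day 6), and mox-9 (NCU05883) by -3.17, a call that was lost without the same libraries (adjusted p = 0.0664 and 0.0744). rhd (NCU06031) changed by -1.41. Each of these 6 genes had all of its day 6 values below all of its day 1 values, with replicate 3 of day 1 the highest.

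DNA replication genes also fell. This list of 22 was likewise formed after the values had been seen. Of them 8 were called lower and 0 higher, beside 3.36% and 3.03% of all tested genes. At an adjusted p alone 15 were lower and 0 higher, and the median was -0.78. Over the alternatives 4 to 9 were called lower, with 4 when replicate 2 of day 6 was left out. un-24 (NCU03539), for the large subunit of ribonucleotide reductase, which makes the building blocks of DNA, had 56.3, 43.3 and 58.7 CPM on day 6, against 147, 182 and 153 CPM on day 1 (-1.61 ± 0.27, adjusted p = 1.75e-05). drl-2 (NCU08009), for the MCM3 subunit of the replicative helicase, had 11, 7.31 and 12.6 CPM on day 6 and 27.8, 37.6 and 31.0 CPM on day 1 (-1.64 ± 0.26). In both genes replicate 2 had the lowest value of day 6 and the highest of day 1, and the days were well apart. The helicase loader gene cdc6 changed by -1.41, rpa-1, for the protein that coats single-stranded DNA, by -1.12, drl-1 (MCM2) by -1.13, cdc54 (MCM4) by -1.03, the kinase gene cdc7 by -1.09 and dno-1 (ORC1) by -1.01. The DNA polymerase genes pola-1, pold-1 and pold-2 were at -0.08, -0.59 and -0.46 and were not called.

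Of 7 core and linker histone genes, 2 were called lower and 0 higher, beside 3.36% and 3.03% of all tested genes. At an adjusted p alone 4 were lower and 0 higher, and the median was -0.66. hH2A (NCU02437) had 356, 219 and 296 CPM on day 6, against 826, 639 and 728 CPM on day 1 (-1.33 ± 0.23, adjusted p = 2.9e-05). hH2B had 458, 370 and 470 CPM on day 6 and 995, 791 and 870 CPM on day 1. Its log2 fold change of -1.03 went under the fold criterion with the size factors or the Wald test of DESeq2 (-0.97 in both) and without replicate 2 of day 6 or replicate 1 of day 1 (-0.93 and -0.94). The wild type in light had the larger falls in these groups. Its medians were -1.19 for the replication genes, with 16 of 22 called lower (10.2% of all genes were called lower there), and -1.36 for the histones, with 5 of 7 called lower. The difference between the strains was called for hH2A (1.55, adjusted p = 0.00011) and hH2B (1.57, adjusted p = 2.8e-05), and for 3 of the 22 replication genes. Mutant dark cultures had a median of -0.56 for the replication genes, and none passed both criteria of edgeR there. Ribosomal protein genes with a crp symbol had a median of -0.61. Of the 7, edgeR called 0 at both criteria and 5 lower at an adjusted p alone, all 7 were lower at an unadjusted p under 0.05, DESeq2 called 0, and 3 were called lower without replicate 1 of day 6.

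The genes that rose most among those well measured had no name. NCU05068 (chromosome VI, 3840490 to 3842149) had 273, 411 and 249 CPM on day 6, against 26.2, 29 and 18.7 CPM on day 1, a log2 fold change of 3.66 ± 0.38 (adjusted p = 4.8e-10). All day 6 libraries were at least several-fold above the highest day 1 library. Its means were 24.6, 45.7, 127 and 311 CPM on days 1, 2, 4 and 6. It rose further than in the wild type in light (difference 2.42, adjusted p = 7.2e-05) and than in the dark (2.16, adjusted p = 0.0017). NCU09724 (chromosome VII, 1353460 to 1355271) had 824, 1123 and 736 CPM on day 6 and 123, 101 and 101 CPM on day 1 (3.05 ± 0.41, adjusted p = 1.96e-07), again with a larger rise than in the wild type (1.89) and the dark (2.16). NCU02722, which had 928, 1237 and 1310 CPM on day 6 and 286, 182 and 201 CPM on day 1, was higher by 2.38 ± 0.44. NCU08037 and NCU02932 were among the largest rises in CPM, but their calls, at 1.52 and 1.00, were lost when any of 3 or any of 4 libraries was left out (highest adjusted p = 0.081 and 0.109). NCU02932 also went under the fold criterion, to 0.99, with a replicate block, with ccg-4 left out and in the fit to 12 libraries.

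Rises at lower levels included a pair of genes on chromosome IV. NCU07981 had 51.1, 17 and 22.5 CPM on day 6, against 2.51, 1.71 and 1.22 CPM on day 1 (4.06 ± 0.77, and 3.45 without replicate 1 of day 6). NCU07978 had 71.6, 32.0 and 29.1 CPM on day 6 and 4.42, 2.72 and 3.91 CPM on day 1 (3.59 ± 0.83). Replicate 1 of day 6 was the highest library for both. For NCU07978 the wild type in light rose further, so that the difference was -5.16 (adjusted p = 0.0054). NCU08531 had 18.6, 28.5 and 24.1 CPM on day 6, against 4.14, 3.79 and 4.10 CPM on day 1 (2.56 ± 0.41), and it rose further than in the wild type (3.08) and in the dark (1.92). NCU07152 rose by 2.42 in the mutant in light and less than in the wild type (-4.0). NCU01011, NCU09775 and NCU07646 were higher by 3.17, 2.76 and 2.62. The call of NCU01011 was lost without replicate 2 of day 1 (adjusted p = 0.0606), and that of NCU07646 without replicate 2 of day 6 or replicate 3 of day 1 (0.0578 and 0.0689).

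Light response and clock genes were led by wc-1 (NCU02356, chromosome VII, 2767393 to 2773846), the gene for the blue-light photoreceptor. It had 426, 599 and 533 CPM on day 6, against 156, 181 and 151 CPM on day 1 (1.68 ± 0.27, adjusted p = 8.4e-06). Every day 6 library was far above the highest day 1 library. Its means were 162, 193, 296 and 519 CPM on days 1, 2, 4 and 6. The gene also rose in mutant dark cultures, to a mean of 193 CPM on day 6, against 74.9 CPM on day 1. In wild-type light cultures the means were 109 CPM on day 6 and 55.8 CPM on day 1. Neither difference in the change was called (0.72, adjusted p = 0.13 for the strains, and 0.31, adjusted p = 0.66 for light and dark). frq (NCU02265), the clock gene, had 1553, 1635 and 1390 CPM on day 6 and 848, 968 and 832 CPM on day 1. Its log2 fold change of 0.79 ± 0.22 passed the adjusted p (0.00636) and not the fold criterion. wc-2 was at 0.34 and vvd, the photoadaptation gene, at 0.30. al-3 (NCU01427), for a carotenoid precursor, had 118, 120 and 105 CPM on day 6, against 287, 247 and 245 CPM on day 1. Its log2 fold change of -1.18 was called with all libraries (adjusted p = 0.0379) but with none of the 6 left out in turn (0.0661 to 0.105) nor with the size factors of DESeq2 (0.0524). Of the 13 genes of the list, 1 was called higher and 1 lower, and the median was 0.08.

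The mating genes showed a rise in the transcript of a pheromone gene. mfa-1 (NCU16992, chromosome V, 3396270 to 3397430), the pheromone precursor gene expressed by mat a cells, had 588, 598 and 3036 CPM on day 6, against 171, 122 and 409 CPM on day 1. Replicate 3 was the highest library of each day, and the days did not overlap. The log2 fold change was 2.59 ± 0.42 (adjusted p = 8.58e-06). It was 1.34 (adjusted p = 0.00815) without replicate 3 of day 6 and 3.26 without replicate 3 of day 1, so its size, but not its call, rested on these libraries. The means were 13.3 CPM on day 0, before male cells were added, then 234, 624, 922 and 1407 CPM on days 1, 2, 4 and 6. The means on day 6 and day 1 were 1315 and 2036 CPM in wild-type light cultures and 734 and 911 CPM in mutant dark cultures. Both cultures were above the mutant light mean on day 1 and below it on day 6. The changes differed from the wild type by 3.22 (adjusted p = 7.6e-06) and from the dark by 2.90 (adjusted p = 0.00023). The share of male cells in this rise was not tested. pre-2 (NCU05758), the receptor gene of mat a cells, had 4.23, 5.21 and 5.70 CPM on day 6 and 2.45, 3.35 and 3.14 CPM on day 1, with a log2 fold change of 0.76 (adjusted p = 0.0211) that did not meet the fold criterion.

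On the side of the female parent, the pheromone gene ccg-4 (NCU02500) was the most abundant transcript, with 107800, 165800 and 180800 CPM on day 6, against 80300, 73360 and 79670 CPM on day 1. The groups did not overlap, but the spread of this gene over the series was wide and the log2 fold change of 0.96 ± 0.97 was not significant (adjusted p = 0.515). Leaving it out before scaling gave 612 calls, 605 of them shared with the 620. The mating-type gene matA-1 stood at 247, 283 and 278 CPM on day 6 and 245, 259 and 267 CPM on day 1 (0.07, adjusted p = 0.951), and the receptor gene pre-1 changed by 0.36 (adjusted p = 0.509). Of the 7 mating-type and pheromone genes 1 was called, mfa-1, and the median was 0.36.

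**Figure D3:**
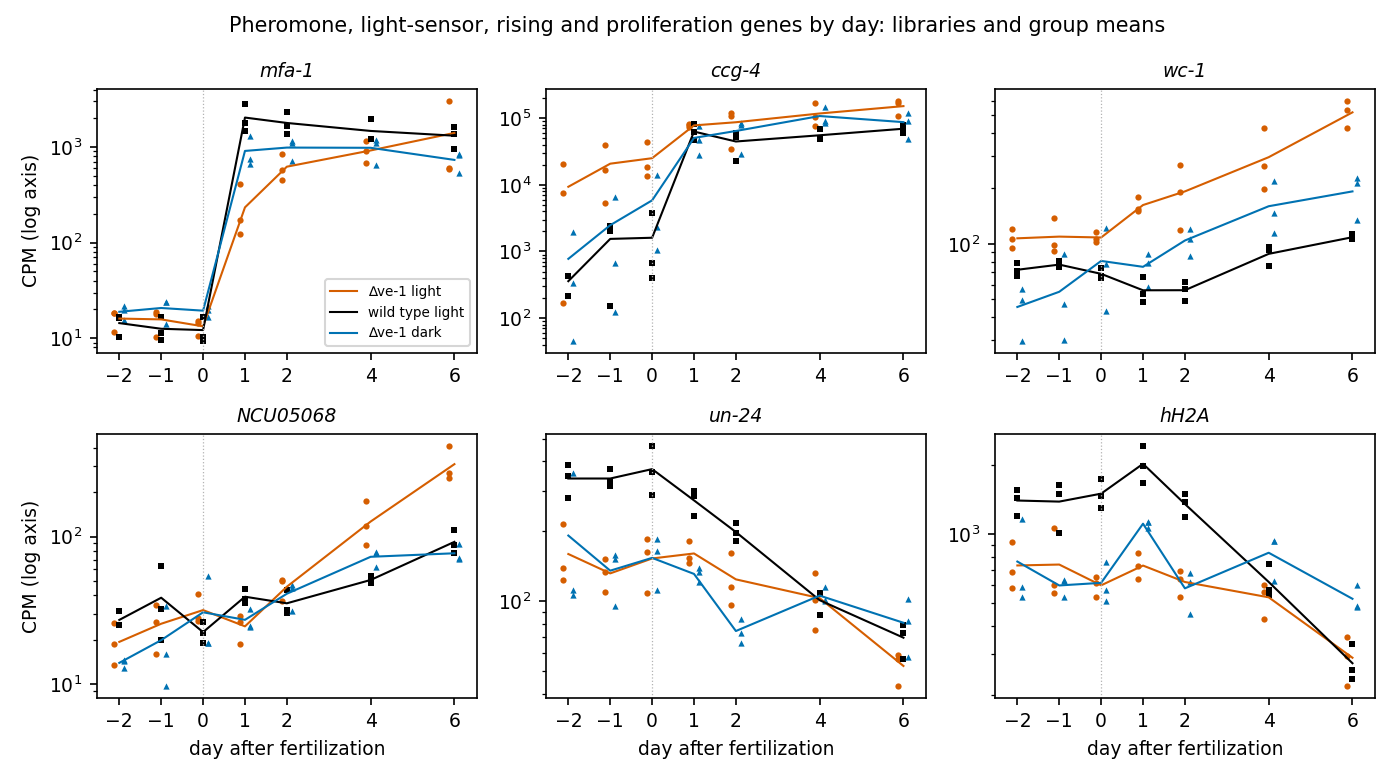
CPM (log axis) of mfa-1, ccg-4, wc-1, NCU05068, un-24 and hH2A on the 7 sampling days (x axis), with points for libraries and lines for group means in ∆ve-1 light, wild-type light and ∆ve-1 dark. In ∆ve-1 light mfa-1 climbed from day 1 on, to 1407 CPM on day 6, while it was near its later level on day 1 in the wild type in light (2036 CPM).

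Genes of perithecia and of conidia gave few calls. Of 9 perithecial melanin and pigment genes 1 was called higher and 1 lower (median 0.18). scy-1 (NCU07823), for scytalone dehydratase of the melanin pathway, had 52.5, 24.2 and 58.3 CPM on day 6, against 97.2, 88.8 and 115 CPM on day 1. Its log2 fold change of -1.16 (adjusted p = 0.0135) was lost without replicate 2 of day 6 (adjusted p = 0.134) or replicate 3 of day 1 (0.057). per-1 (NCU03584), the polyketide synthase gene for the black pigment of the perithecial wall, had 72.4, 38.6 and 114 CPM on day 6, against 243, 254 and 244 CPM on day 1. Here too the days were apart, and the log2 fold change of -1.72 ± 0.68 came close to the threshold (adjusted p = 0.0553) and passed it in a fit to the 6 libraries alone (adjusted p = 0.00222) and with the DESeq2 Wald test (0.0368). Its mean in the wild type in light was 2865 CPM on day 6. ty-2 was higher, at 3.19, 1.94 and 1.87 CPM on day 6 and 0.747, 1.07 and 0.321 CPM on day 1 (1.70). Of 20 genes of female development, fruiting bodies and ascospores, edgeR called 0 at both criteria and 5 higher at an adjusted p alone. At an unadjusted p under 0.05, 5 were higher and 1 lower, and 4 of the alternatives called 1 gene higher. fsd-1 and asd-1 were at 0.38 and 0.34.

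Of 18 conidiation genes 2 were called lower and 0 higher, beside 3.36% and 3.03% of all tested genes. At an adjusted p alone 3 were lower and 0 higher, and the median was 0.10. cgl-1 (NCU07523), for a glucanase needed to separate conidia, had 65.1, 73.5 and 61.2 CPM on day 6, against 152, 185 and 145 CPM on day 1 (-1.27, adjusted p = 0.0122). In wild-type light cultures the gene rose, to a mean of 851 CPM on day 6, against 85.6 CPM on day 1, and the difference in the change was -4.59 (adjusted p = 1.2e-09). acon-3, needed for conidial chains, was at 11.7, 11.9 and 13 CPM on day 6 and 24.3, 33.2 and 28.7 CPM on day 1, but its call at -1.23 was lost without any of 5 of the 6 libraries (up to 0.108) and with the size factors of DESeq2 (0.0519). The most abundant conidial gene, con-10, had 33080, 34300 and 24370 CPM on day 6 and 30830, 22390 and 25490 CPM on day 1, with overlap (0.22, adjusted p = 0.875). The hydrophobin gene eas had 7468, 10680 and 6889 CPM on day 6, against 19810, 14520 and 17080 CPM on day 1 (-1.04, adjusted p = 0.358), and was called in a fit to the 6 libraries alone (adjusted p = 0.00458). The conidiation regulator fl was at 0.52 (adjusted p = 0.478).

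Meiosis genes moved in both directions at low levels. Of 14 recombination genes 1 was called higher and 1 lower (median -0.10), and of 7 meiotic silencing genes 2 were called higher and 0 lower (median 0.50). msh4 (NCU10895), for a protein of meiotic crossing over, had 16.6, 29.1 and 28.4 CPM on day 6, against 6.79, 7.64 and 6.79 CPM on day 1 (1.80 ± 0.38, adjusted p = 0.000432). sad-1 (NCU02178), for the RNA-dependent RNA polymerase of meiotic silencing, had 3.49, 7.39 and 8.17 CPM on day 6 and 3.06, 1.90 and 2.56 CPM on day 1 (1.34, adjusted p = 0.0105). Its call was lost without replicate 2 or 3 of day 6 or replicate 2 of day 1 (0.0527, 0.0652 and 0.0645). Both rose less than in the wild type, by -1.36 (adjusted p = 0.035, up to 0.106 with 1 library left out) for msh4 and -2.52 (adjusted p = 0.0002) for sad-1. sad-5 was called at 3.01, but at 0.371, 0.233 and 0.6 CPM on day 6 and 0, 0 and 0.128 CPM on day 1 it was barely detected, and the call was lost without any of 5 of the 6 libraries (up to 0.16). The repair gene mus-25 was at -1.02 and within the fold criterion under several settings (-0.92 to -0.98). spo11, for the enzyme that starts meiotic recombination, was at 0.21 (adjusted p = 0.643).

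Genes of the cell wall and of polymer breakdown moved singly. Of 77 glycoside hydrolase genes with a gh symbol, 4 were called higher and 7 lower, beside 3.03% and 3.36% of all tested genes. The median was 0.06, and 2 were called lower without replicate 2 of day 6. gh18-4 (NCU04883), of a chitinase family, had 13.8, 30.1 and 14.6 CPM on day 6, against 140, 161 and 108 CPM on day 1 (-2.81 ± 0.74, adjusted p = 0.00385). gh18-2 (NCU03209), of the same family, had 11.4, 3.11 and 17.5 CPM on day 6 and 69.2, 48.8 and 68.3 CPM on day 1 (-2.54, adjusted p = 0.0111, and 0.0889 without replicate 2 of day 6). Both chitinase genes were lower in every day 6 library. Among the genes called higher, gh10-3, of a xylanase family, had 8.16, 13 and 10.1 CPM on day 6 and 2.17, 2.72 and 1.54 CPM on day 1 (2.28 ± 0.44). gh11-2 was higher at 2.15, 2.41 and 3.00 CPM on day 6 and 0.136, 0.505 and 0.128 CPM on day 1 (3.25, and 4.18 without replicate 2 of day 1). Of 17 cell wall protein genes 2 were called lower and 0 higher (2 lower and 0 higher at an adjusted p alone; median -0.06), ncw-4 at -1.29 and acw-6 at -1.23.

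Among other named genes, stk-53 (NCU09064), for a protein kinase, had 20.2, 13.2 and 24 CPM on day 6, against 67.9, 63.8 and 68.2 CPM on day 1 (-1.80 ± 0.29, adjusted p = 6.42e-06). gdh-1 (NCU00461), for the NAD-dependent glutamate dehydrogenase, which breaks down glutamate, had 74.9, 53.0 and 81.4 CPM on day 6 and 176, 253 and 232 CPM on day 1 (-1.66 ± 0.40, adjusted p = 0.00166). mid-1 (NCU06703), for a calcium channel subunit, had 318, 327 and 292 CPM on day 6, against 138, 157 and 136 CPM on day 1 (1.12 ± 0.14, adjusted p = 1.89e-08). In these 3 genes the days did not overlap, which the rule that named them required. stk-18 was higher by 1.08, with 1051, 890 and 1069 CPM on day 6 and 474, 526 and 420 CPM on day 1. mpr-9, at -3.21, lost its call without replicate 3 of day 6 (adjusted p = 0.0546) and was at -4.24 without replicate 2 of day 6. NCU07923 fell by 3.12 on the log2 scale. The rises of the catalase gene cat-3 (1.47), of mb-3 (1.26) and of the nitrate transporter gene nit-10 (1.06) were called with all libraries but not without any of 4, 5 and 4 of the 6 libraries (up to 0.131, 0.0900 and 0.280), and for nit-10 replicate 3 of day 6, at 161 CPM against 69.8 and 87.9 CPM in the others, decided the call. NCU09236 and NCU10264 also had large falls in CPM. NCU09236 had 578, 237 and 663 CPM on day 6 and 2550, 1887 and 2362 CPM on day 1, yet its call (-2.20, adjusted p = 0.0359) was lost without any 1 of the 6 libraries (0.0516 to 0.166). NCU10264 had 437, 175 and 462 CPM on day 6 and 1444, 1286 and 1467 CPM on day 1 (-1.96 ± 0.43).

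In the signaling lists edgeR called 0 genes at both criteria, as did DESeq2 and the other alternatives that kept the fold criterion. These were the 8 genes of the pheromone response pathway of MAK-2, the 13 genes of the cell wall integrity pathway of MAK-1 and cell fusion, the 6 osmosensing genes and the 3 velvet complex genes, with medians of 0.11, -0.10, 0.31 and 0.20. At an adjusted p alone, 2, 2, 2 and 0 of them were higher and 0 lower, and at an unadjusted p under 0.05, 4, 2, 3 and 0 were higher and 0, 2, 0 and 0 lower. In wild-type light cultures 3 of the 8 and 5 of the 13 were called lower, beside 10.2% of all tested genes. The difference between the strains was called higher in the mutant for 4 of 8 and 5 of 13, and lower for 0 of 8 and 1 of 13, beside 7.54% of all genes higher and 13.6% lower. mak-2, ham-6 and ham-7 had such differences, of 1.19, 1.29 and 1.45. Metabolic and stress lists likewise had 0 calls by edgeR at both criteria, and 0 with DESeq2 and the other alternatives that kept the fold criterion. The 9 nitrogen assimilation genes, 29 complex I subunit genes, 5 chitin synthase genes, 10 heat shock protein genes and 6 polyketide synthase genes had medians of -0.08, -0.20, -0.06, 0.31 and 0.24, with 1, 0, 0, 4 and 1 higher and 1, 1, 1, 1 and 0 lower at an adjusted p alone. At an unadjusted p under 0.05, 1, 0, 0, 5 and 1 were higher and 2, 5, 1, 1 and 0 lower. Of 4 catalases 1 was called higher, cat-3, and the median was -0.03.

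**Figure D4:**
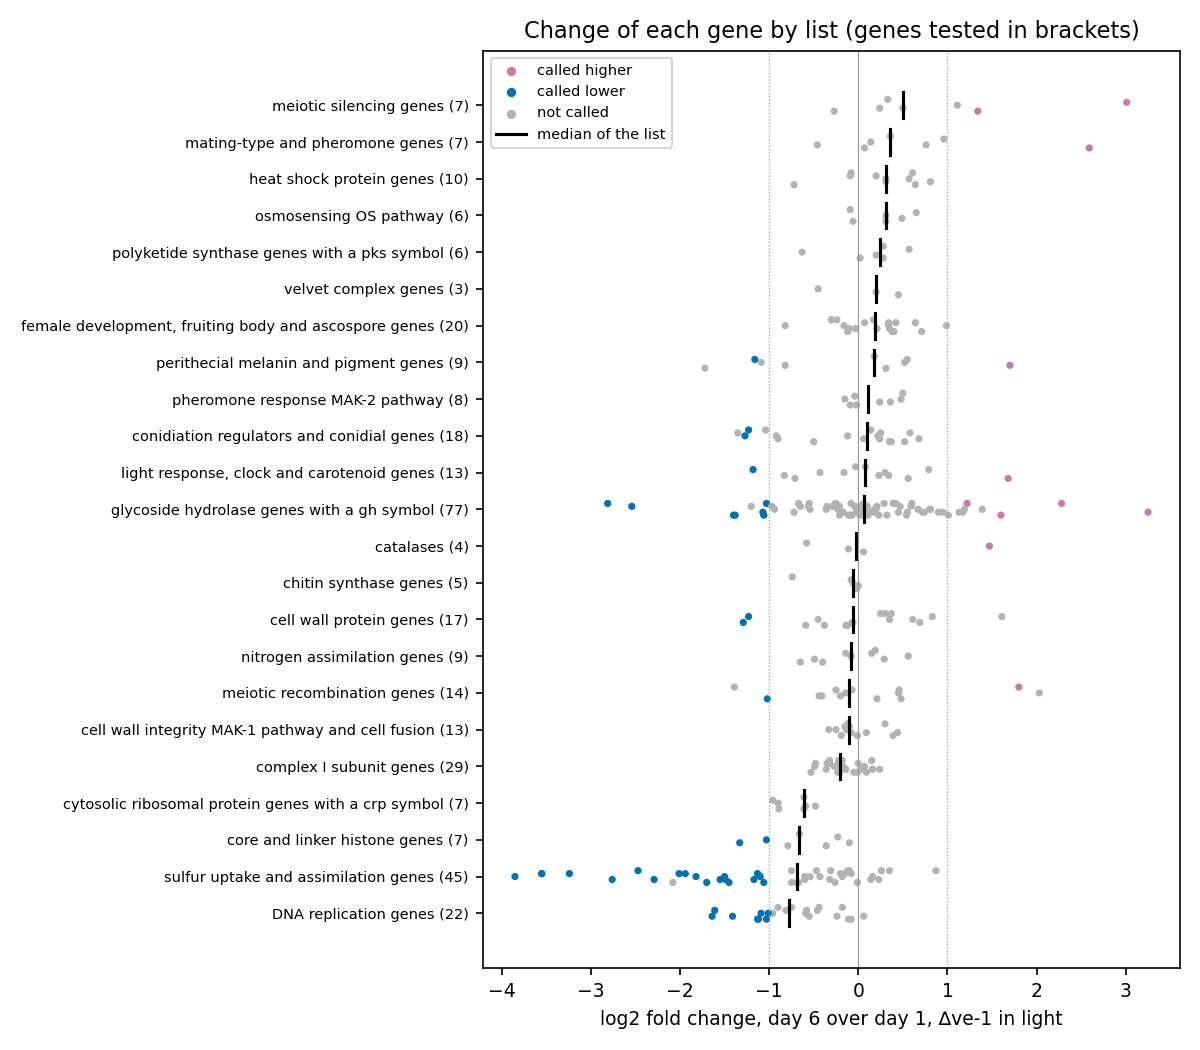
Log2 fold change of day 6 over day 1 in ∆ve-1 in light (x axis) for every tested gene of each list (y axis, number tested in brackets), with points coloured by call and a bar for the median of the list. The lowest medians belonged to DNA replication (-0.78), sulfur (-0.69), histone (-0.66) and ribosomal protein (-0.61) genes.

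The same interval in the wild type in light asked how far the mutant's changes depended on its genotype. The wild type had 2641 genes called (27.2%), 1652 higher (17%) and 989 lower (10.2%), beside the 620 of the mutant. Of the 294 genes called higher in the mutant, 132 were called higher in the wild type (44.9% of the mutant's and 7.99% of the wild type's), and 20 were called lower there. Of the 326 called lower, 90 were called lower in the wild type (27.6% and 9.10%), and 47 were called higher. The difference in the change was called for 2048 genes (21.1%), 731 higher (7.54%) and 1317 lower (13.6%) in the mutant. Among the mutant's own calls, 78 of the 294 rose further than in the wild type and 36 less, while 144 of the 326 fell further and 9 less. In the dark, the mutant had 1117 genes called (11.5%, and 23.9% without the fold criterion), 762 higher (7.85%) and 355 lower (3.66%). The changes in light and dark shared 79 genes called higher (26.9% of those in light and 10.4% of those in the dark) and 45 called lower (13.8% and 12.7%). A difference of light from dark was called for 740 genes (7.63%), 200 higher and 540 lower in light. It put 49 of the 294 further up in light and 9 less, and 124 of the 326 further down and 0 less far down. Beyond both the wild type in light and the mutant in the dark were 42 of the genes called higher and 91 of those called lower. The 294 and 326 genes were chosen for a large change in the same mutant light libraries that enter both differences. A lead of further over less is partly fixed by that choice, so these counts describe the genes and test nothing.

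**Figure D5:**
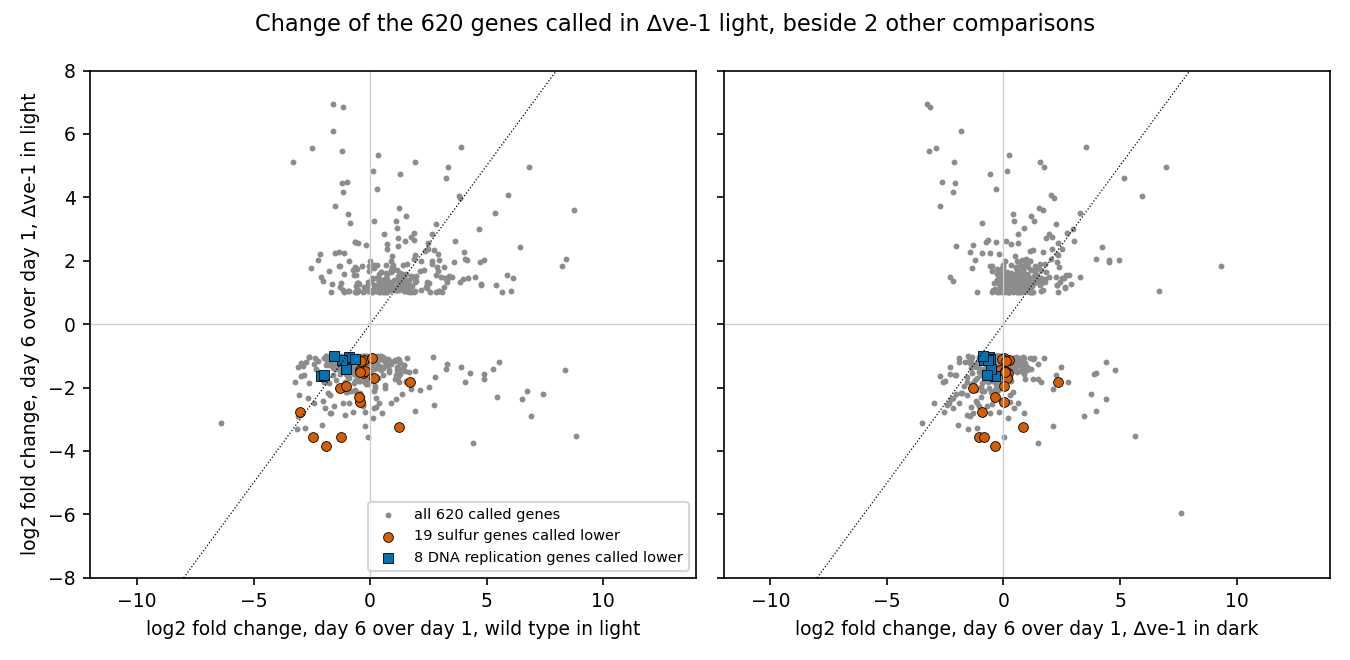
Log2 fold change of day 6 over day 1 in ∆ve-1 in light (y axis) against the same change in the wild type in light (left, x axis) and in ∆ve-1 in the dark (right, x axis) for the 620 called genes, with the line of equal change dotted. The 19 sulfur genes lie mostly below the line, for example tdo-2 at -2.47 in ∆ve-1 light, against -0.43 in wild-type light and 0.03 in ∆ve-1 dark. They were chosen as called lower on the y axis, which in part fixes their place below the line. Another of the 19, NCU05888, differed by only -0.70 from the wild type and -0.70 from the dark, and neither difference was called.

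The widest differences were at genes that rose in the wild type and stayed low in the mutant in light. NCU00031 (chromosome III, 2349332 to 2350549) had 11.1, 5.21 and 20.9 CPM on day 6 and 2.72, 6.00 and 6.48 CPM on day 1 in the mutant in light. Its means were 12780 CPM on day 6 and 7.12 CPM on day 1 in the wild type in light, and 7193 and 8.33 CPM in the mutant in the dark, so that both other cultures ended far above the mutant in light. NCU09765 had a mean of 0.124 CPM on day 6 and 0.297 CPM on day 1 in the mutant in light, and 1066 and 0.132 CPM in the wild type in light. NCU05710, with 0.150 and 0.107 CPM in the mutant in light on these days and 845 and 0.151 CPM in the wild type, lost the call of its difference without 1 library (adjusted p = 0.135 from the wild type and 0.394 from the dark). In mutant light cultures NCU09645, NCU03541, NCU08089, NCU03540 and NCU08724 had at most 0.125 CPM on day 6, against 121, 199, 119, 31.3 and 14.1 CPM in the wild type. The difference from the dark for NCU08089 lost its call without 1 library (adjusted p = 0.156). In the other direction were genes high on day 1 in both other cultures. qa-5 (NCU05730) had 2.28 CPM on day 6 and 2.58 CPM on day 1 in the mutant in light, against 11.1 and 997 CPM in wild-type light cultures and 10.2 and 292 CPM in the dark. NCU01113 and NCU04031 were at 0.736 and 1.37 CPM on day 6 and 0.623 and 0.480 CPM on day 1 in the mutant in light, while wild-type light cultures had 0.675 and 0.785 CPM on day 6 and 42.9 and 20.3 CPM on day 1.

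Days 2 and 4 showed how the change was spread over the interval. From day 1 to day 2 no gene was called by edgeR (0.00%) and none by DESeq2, and 238 genes (2.45%) had an unadjusted p under 0.05. From day 2 to day 4 edgeR again called 0 genes (0.00%) and DESeq2 5, with 628 (6.47%) at an unadjusted p under 0.05. From day 4 to day 6 edgeR called 9 genes (0.0928%), 1 higher (0.0103%) and 8 lower (0.0825%), and DESeq2 13, with 1141 (11.8%) at an unadjusted p under 0.05. The steps share libraries with the full interval and with each other. The count of the last step ran from 0 without replicate 3 of day 4 to 35 without replicate 2 of day 4. That library lay closer to the day 6 mean (distance 0.281) than to the day 1 mean (0.454), whereas replicate 3 of day 4 was nearer to day 1 (0.310, and 0.410 to day 6). Group means ran in order over days 1, 2, 4 and 6 for 248 of the 294 genes called higher (84.4%) and 247 of the 326 called lower (75.8%). The choice of these genes fixes the order of the ends. Over all tested genes the share was 35.1% of those with a higher mean on day 6 and 30.9% of those with a lower one. The median steps were 0.34, 0.52 and 0.60 among the genes called higher and -0.33, -0.37 and -0.65 among those called lower. Of the 9 genes of the last step, drl-2 had 11, 7.31 and 12.6 CPM on day 6 and 20.5, 15.6 and 27.4 CPM on day 4 (-1.04, adjusted p = 0.0475). NCU07533 had 10.8, 4.82 and 12.1 CPM on day 6 and 35.1, 21.4 and 34.2 CPM on day 4 (-1.71, adjusted p = 0.0362). NCU09073 changed by -1.70, NCU03484 by -1.60, NCU05025 by -1.30, NCU06146 by -1.21, NCU00497 by -1.13 and NCU02612 by -1.02, and NCU08735 was the gene called higher (1.34).

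Some called genes were neighbours. There were 10 runs of at least 3 adjacent tested genes called in the same direction, 5 higher and 5 lower, with 34 genes in all. The run with the most genes, NCU02873 to NCU02868 (chromosome I, 8848772 to 8865693), held 5 genes that were all but silent on day 1. NCU02868 had 30, 45 and 59 counts on day 6, against 0, 2 and 1 counts on day 1, and NCU02873 had 9, 63 and 48 counts on day 6 and 1, 4 and 0 on day 1. NCU02869 had 0, 28 and 8 counts on day 6 and no count on day 1, where a count of 0 allows up to 3 counts a library, so no fold is given. Replicate 1 of day 6 was the lowest library in each of these 3 genes. Wild-type light cultures had 7.46 CPM of NCU02868 on day 6 and 42.6 CPM on day 1, and the mutant in the dark 3.57 and 26.2 CPM, so the gene went the other way there (differences 8.06, adjusted p = 6.43e-05, and 8.42, adjusted p = 0.000197). NCU07645 to NCU07648 (chromosome IV, 387841 to 398274) held 4 genes called higher, and NCU09169 to NCU09172 (chromosome III, 237024 to 247405) held 4 with rises of 1.28 to 1.56. NCU16599 to NCU09775 (chromosome II, 4265050 to 4270336) and NCU05055 to NCU05053 (chromosome VI, 3898507 to 3909664) held 3 each.

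The runs called lower held several of the sulfur genes. tdo-3, aap-23 and NCU02194 lay side by side on chromosome VII (3375604 to 3384319), with log2 fold changes of -3.55, -3.85 and -1.08. aap-23 and NCU02194 overlap in position, so some of the reads of each may be the other's if they share a strand. NCU05886, NCU05887 and NCU05888 (chromosome VII, 4166232 to 4172944) fell by 1.76, 2.12 and 2.01 on the log2 scale. suc-2, mfs-29 and NCU07821 (chromosome III, 976728 to 983387) had -3.32, -3.26 and -2.89. NCU01055, NCU01056 and tdo-2 (chromosome V, 2779484 to 2787316) had -2.46, -1.43 and -2.47. NCU01055 had 29.6, 16.1 and 13.4 CPM on day 6, against 74.8, 95.7 and 154 CPM on day 1 (adjusted p = 4.74e-09). Neither the run of suc-2 nor the fifth one held a gene of the sulfur list. The fifth, NCU09042 to NCU09045 (chromosome VII, 426724 to 435804), had changes of -1.05, -1.46 and -1.06.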

How the data were processed

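RNA of ∆ve-1 cultures in light was poly-A selected, made into strand-specific libraries and sequenced from paired ends. The authors mapped cleaned reads with STAR (version 2.7 in the submitters' processing notes, which also name FastQC) to the NC12 genome and deposited raw counts per gene made with featureCounts. No normalization had been applied. Coordinates and symbols are from the RefSeq annotation of NC12, and names of genes without a RefSeq symbol from the study's tables.

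Samples were grouped by their labels, and CPM were TMM-normalized. edgeR 4.0.16 (R 4.3.3, limma 3.58.1) fitted 28 group means to all 84 libraries by quasi-likelihood after filterByExpr, which left 9701 of 10590 genes (305 had no count), and p-values were adjusted after Benjamini and Hochberg over these. Calls needed an adjusted p below 0.05 and a log2 fold change beyond 1 in either direction. The alternatives were DESeq2 1.42.0, its size factors in edgeR, no filter, no fold criterion, a replicate block, fits to 6 or 12 libraries, and each library left out. Leaving out ccg-4 was added after seeing the data. The test, checked on simulated data of this comparison with 9688 genes, recovered 92% of genes changed by 1.5 and 96% of those changed by 2 on the log2 scale. It also called 2 genes that had not been changed. The changed genes were drawn from those above 1 CPM on day 1, so recovery of lower genes was not checked. Figures were drawn with pandas 2.3.3 and matplotlib 3.10.9.

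Genes were named by a rule. It took the 10 largest rises and falls with groups that did not overlap and a higher mean of at least 10 CPM, the same among genes with a symbol, the 5 largest changes in CPM each way, the 5 largest differences each way with a mean of at least 10 CPM, up to 4 called genes a list, and a set of defining genes. Genes of runs, of the last step and further members of the sulfur and replication lists were chosen after their values were seen. The comparison, the lists and the alternatives were chosen with earlier results of these data known. List members whose name did not match the annotation (ste-50, rlm-1, ve-2, sad-4 and sad-6) were left out.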

Additional observations from a re-analysis of the deposited data

Results flagged for a closer look

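The change between day 6 and day 1 in the mutant in light differed from that in the wild type in light for 2048 genes, and from that in the mutant in the dark for 740 genes, by edgeR tests of the difference itself. The values that follow are differences of the log2 fold change, positive where the change in the mutant in light was the more upward one. A positive value can thus come from a fall in the other culture, and a negative one from a rise there. Of the 731 genes higher than in the wild type, 78 were called higher in the mutant in light and 519 lower in the wild type. Of the 1317 lower, 144 were called lower in the mutant in light and 1010 higher in the wild type. Groups of 3 libraries are too small for a test of single libraries that stand apart. A fitted difference of a gene with a group at or near 0 depends on the small count that edgeR adds before taking logs, and is no measure of size.

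Of the 45 sulfur genes, listed after the values were seen, 14 were lower and 1 higher than in the wild type by this test, and 16 were lower than in the dark. The differences from the wild type were -2.31 for tdo-3, -4.50 for ars-1, -1.81 for cys-16 and -1.06 for cys-2. Those from the dark were -3.48 for aap-23, -4.07 for ars-1, -1.91 for cys-16, -1.96 for cys-14 and -1.57 for cys-2. Outside the sulfur list, NCU06040 differed by -3.47 from the wild type and -3.59 from the dark, and rhd and chol-16 by -1.62 and -2.23 from the dark. Among these, tdo-3 and cys-2 lost the call from the wild type without any of 8 of the 12 libraries (adjusted p up to 0.137 and 0.158). aap-23 and NCU06040 lost the call from the dark without any of 7, chol-16 without any of 6, cys-14 without any of 5 and cys-2 without 1.

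Of the genes that rose, NCU05068 had differences of 2.42 from the wild type and 2.16 from the dark, NCU09724 1.89 and 2.16, mfa-1 3.22 and 2.90, and NCU08531 3.08 and 1.92. From the wild type, mb-3 was at 1.72 and NCU02722 at 1.66 (not called without 1 library), while NCU07978 was at -5.16 and NCU07152 at -4.0. gh11-2 differed from the dark by 2.79, a call lost without any of 8 libraries.

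Wall, conidial and perithecial genes differed in both comparisons in several cases. From the wild type, gh10-3 was at -1.74, gh3-8 at -1.22, gh18-4 at -3.31, gh18-2 at -5.30, acw-6 at -1.11, cgl-1 at -4.59 and scy-1 at -1.29. From the dark, gh18-4 was at -3.68, acw-6 at -1.62, cgl-1 at -2.76, acon-3 at -2.06, scy-1 at -1.99, per-1 at -2.95 and mpr-9 at -5.33. Leaving out 1 library ended the call from the wild type for gh10-3, gh18-4, acw-6 and scy-1 (1 to 6 of 12 libraries), and that from the dark for acon-3, per-1 and mpr-9 (1 to 5). stk-53 differed by -3.34 and -1.32, gdh-1 from the dark by -1.81, NCU09236 and NCU10264 from the wild type by -3.57 and -2.16, and NCU07923 by 3.28. The call of stk-53 from the dark was lost without any of 3 libraries and that of gdh-1 without any of 4.

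Meiosis and chromatin genes differed from the wild type, with -1.36 for msh4, -1.39 for mus-25, -2.52 for sad-1, 1.55 for hH2A and 1.57 for hH2B. msh4 lost this call without any of 6 of the 12 libraries. The signaling genes mak-2, ham-6 and ham-7 were at 1.19, 1.29 and 1.45, and ve-1, which is deleted in the mutant, at 1.74.

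The widest fitted differences, from the wild type and then from the dark, belonged mostly to genes with a group at or near 0 in 1 of the cultures, and to NCU00031 and qa-5, which were low but measured in the mutant in light. They were -17.17 and -10.63 for NCU03540, -14.58 and -8.85 for NCU09645, -14.12 and -9.48 for NCU09765, -13.85 and -12.37 for NCU08089, and -13.74 and -13.59 for NCU08724. NCU03541 had -12.36 and -9.18, NCU05710 -11.93 and -8.77, and NCU00031 -9.51 and -8.47. In the other direction were NCU02869 with 8.54 and 10.21, NCU02868 with 8.06 and 8.42, qa-5 with 6.29 and 4.65, NCU01113 with 6.20 and 7.41, and NCU04031 with 6.18 and 5.33. gt2-3 had 5.30 and 6.34, NCU08249 5.21 and 6.44, and NCU06121 4.99 and 5.88. Without 1 library the calls of NCU02869, NCU08089 and NCU05710 were lost in both comparisons. gt2-3 stood at a mean of 7.08 CPM on day 6 and 0.388 CPM on day 1 in the mutant in light, against 18.6 and 41.0 CPM in wild-type light cultures.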

How the results depend on the processing

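Without the fold criterion, the counts of calls were 2296 in the mutant in light (1053 higher and 1243 lower), 29 from day 4 to day 6, 5418 in wild-type light cultures, 2318 in mutant dark cultures and 3532 for the difference between strains. Across the other settings the count in the mutant in light stayed between 612 and 711. With 1 library left out it was 440 to 622, with 187 to 281 higher and 214 to 341 lower. From day 2 to day 4, DESeq2 called 5 genes, and leaving out 1 library gave 0 to 5. From day 4 to day 6 the size factors of DESeq2 gave 5 calls, and leaving out 1 library 0 to 35. Size factors of DESeq2 moved the share of higher calls to 56.5%, from 47.4% with TMM, and 570 genes were called with both.

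Replicate numbers did not pair the libraries (correlations of same-numbered deviations 0.0258, -0.0775 and 0.0469). A replicate block gave 627 calls, 610 of them shared with the 620.

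Of 58 named genes called with a rounded log2 fold change beyond 1.00, 39 kept the call in all 14 settings. The other 19 lost it in at least 1, all 19 with 1 library left out. NCU02932, called at 1.00, is not among the 58, and its call was lost without any of 4 of the 6 libraries. Of 87 named differences called, 25 lost the call with 1 library left out and 0 changed sign. With 3 libraries a day, and values of low genes resting on few counts, changes near the fold criterion or below about 1 CPM are the least certain. The causes of these shifts were not tested.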
